A study of Homo sapiens with 9 samples.

Results

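Keratins and vimentin are the subunits of the intermediate filaments, and the 10 genes described here are KRT7, KRT8, KRT10, KRT15, KRT17, KRT18, KRT19, KRT80, KRT81 and VIM. They were chosen by name, as the rows whose gene symbol is one of these, and 9 of the 10 have a row among the 31080 reference genes or joined sets of genes in the files; KRT7 was not analysed here. RNA was measured in 9 libraries of A549, a human lung adenocarcinoma cell line, after transfection for 48 h with siRNA at 50 nM. The libraries form 3 groups of 3, scrambled siRNA, siCyclin K#1 and siCyclin K#2, and both active siRNAs target the cyclin K transcript (CCNK), the partner of the transcriptional kinases CDK12 and CDK13. The cells of all groups are 1 line. The design text calls the libraries of a group independent samples, without saying whether they were separate cultures, so the p-values measure the spread between these samples, which may be technical.

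Keratin filaments are obligate heteropolymers, in which an acidic type I keratin pairs with a basic type II keratin. KRT8 (type II) and KRT18 (type I) form the pair of simple epithelia, including the lung, and KRT7 and KRT19 accompany them in many glandular epithelia and carcinomas. KRT10 is a type I keratin of differentiating epidermis, and KRT15 and KRT17 are type I keratins of basal and of wounded or appendage epithelium. KRT80 is a type II keratin found in many epithelia, and KRT81 is a type II keratin of hair. Vimentin is the type III filament protein of mesenchymal cells, and carcinoma lines in culture often carry it beside keratins.

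The genes of this family share sequence, which bears on what a read can be assigned to. In the longest principal transcripts of GENCODE 29 (GRCh38), the longest identical run between KRT81 and KRT86 was 605 bases, longer than a 150-base read, and the runs shared with KRT85 and KRT83 were 98 and 95 bases. Of all stretches of 100 bases in the KRT81 transcript, 30.3% occurred in the transcript of another gene, 29.4% in that of KRT86. For KRT8 the share was 5.92%, of which the pseudogene KRT8P3 held the most at 3.5%, for KRT17 it was 0.322%, and for KRT10, KRT15, KRT18, KRT19, KRT80 and VIM it was 0. The values of KRT81 are therefore uncertain between it and its paralogs, while those of KRT18 and VIM have no such stretch.

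The type II genes lie on chromosome 12 (GRCh38 coordinates, as in the files): KRT8 at chr12:52897187-52949954 and KRT80 at chr12:52168996-52192000, both on the minus strand, and KRT81 at chr12:52285913-52291534, also on the minus strand. KRT18, the 1 type I gene in this cluster, lies at chr12:52948871-52952901 on the plus strand and overlaps KRT8 by 1084 bases. KRT10 (chr17:40818117-40822595), KRT15 (chr17:41513743-41522529), KRT19 (chr17:41523617-41528308) and KRT17 (chr17:41619441-41624842) lie in the type I cluster on the minus strand of chromosome 17. VIM lies at chr10:17228259-17237593 on the plus strand, and its antisense gene VIM-AS1 overlaps it by 1727 bases. Whether the counting used strand is not given in the sources used here, so reads in such overlaps cannot be told apart.

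KRT81 has no row of its own. Its row joins it with KRT85, 68471 bases away, and the row's values were whole numbers of reads at a length of 6937 bases, against 4642 exonic bases of both genes. The KRT86 row was whole at 8867 bases against 2394 exonic bases of that gene, and KRT86 (chr12:52249300-52309163) spans KRT81 on the other strand and overlaps the 3′ end of KRT7 by 2887 bases on the same strand. Whether reads of KRT7 entered the KRT86 row was not tested.

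The deposited values are FPKM (fragments per kilobase of exon, scaled to the depth of the library), and low values were whole multiples of 1 read at 31333728 to 33767965 reads per library. CCNK, the targeted gene, was listed at 6.90 to 7.10 FPKM in the scrambled libraries, at 0.720 to 0.891 after siCyclin K#1 and at 0.802 to 0.920 after siCyclin K#2, which left 11.53% and 12.03% of the scrambled mean. Differences were tested with limma on log2(FPKM + 0.1) over 21048 genes with Benjamini-Hochberg adjustment, and called at an adjusted p under 0.05. With 3 against 3 libraries an exact permutation test cannot go below p = 0.1, so each call rests on the spread pooled over genes. Of 26 rows of epithelial markers, 10 averaged at least 1 FPKM over the 9 libraries, among them TJP1 at 41.3, CLDN1 at 17.4 and OCLN at 5.00. CDH1 averaged 2.41 FPKM, while EPCAM averaged 0.0933 and ESRP1 0.0147. Of 9 rows of alveolar type 2 markers 1 averaged at least 1 FPKM, ABCA3, while NKX2-1 averaged 0.0524, SFTPC 0.0518 and NAPSA 0.107. The line labelled as lung cancer thus held part of the epithelial list and little of the alveolar list. Of the markers of other cells, 0 of 3 basal rows and 0 of 6 endothelial rows averaged at least 1 FPKM, as did 2 of 9 fibroblast rows (COL1A1 and PDGFRA, with COL3A1 at 0.00407 and DCN at 0.0386) and 1 of 6 leukocyte rows (CD68 at 33.5, with PTPRC at 0.00148). In bulk RNA, fewer cells of a type and less RNA per cell cannot be told apart.

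In the scrambled libraries the KRT81 row was the highest of the 9, at 372.4 FPKM ± 56.4 (SD, n = 3), followed by VIM at 270.6 ± 8.0, KRT18 at 83.2 ± 2.15, KRT8 at 55.3 ± 8.78, KRT80 at 22.0 ± 4.35, KRT10 at 9.31 ± 0.765 and KRT15 at 0.761 ± 0.187. KRT19 (0.0578 FPKM ± 0.0542) and KRT17 (0.00778 ± 0.0135) were at the limit of a few reads. These neighbours in the order did not overlap between scrambled libraries, other than KRT17 and KRT19. The order by FPKM depends on the length used. The KRT8 row was divided by 7030 bases and its longest principal transcript has 2126, and for KRT18 the lengths were 3218 and 1562, lengths that include the exons of all annotated transcripts (for KRT8, 149 bases beyond those in GENCODE 29). Scaled to the principal transcript, KRT8 stood at 182.8 ± 29.04 on the same scale of depth and length in the scrambled libraries and KRT18 at 171.4 ± 4.43, and these values overlapped between libraries. VIM stood at 653.8 ± 19.3 on that scale. Ratios of FPKM between groups of the same gene do not depend on the length. The effect of the filter and of the added 0.1 FPKM on low values does depend on it.

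**Figure D1:**
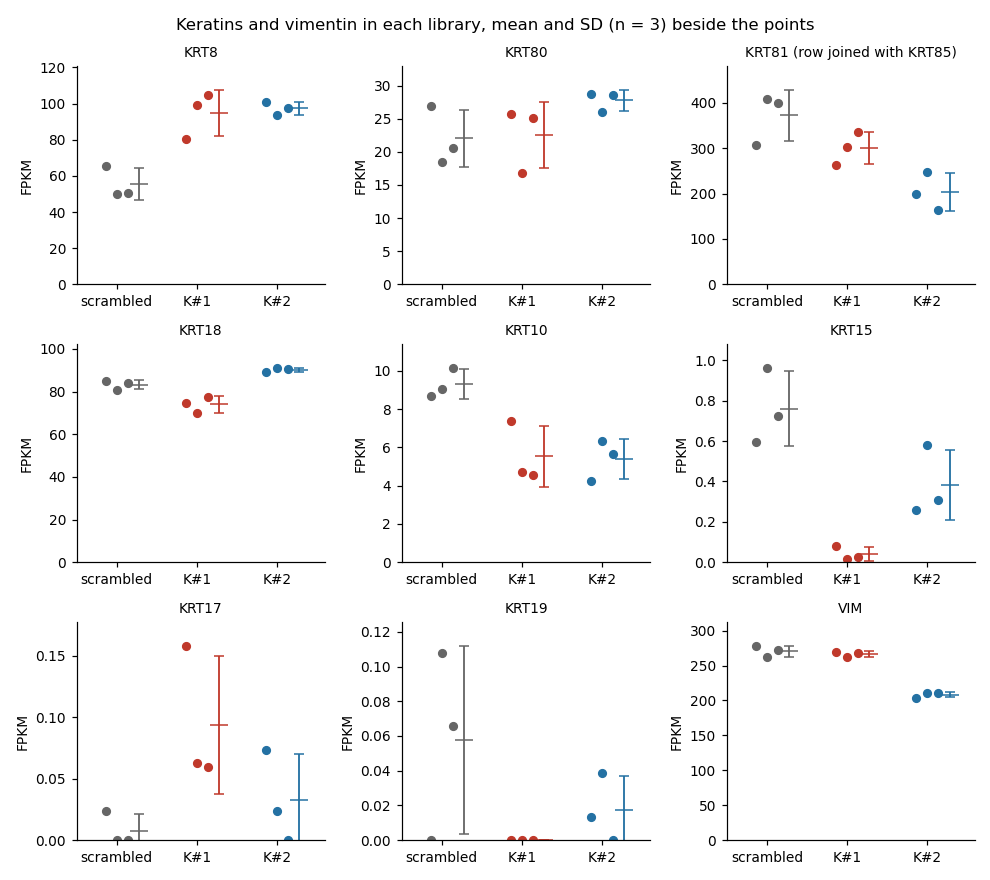
FPKM of the 9 measured genes in each library (vertical axis, from 0; each panel has its own range) by group (scrambled, K#1 and K#2); points are libraries and bars are the mean and SD of 3, with bars that reach below 0 drawn to the axis. KRT8 was above the scrambled range in all 6 siCyclin K libraries, VIM was lower in the siCyclin K#2 libraries at 203.7 to 210.9 FPKM, and KRT15 was under 0.08 FPKM in the siCyclin K#1 libraries.

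KRT8 rose with both siRNAs, while KRT18, its filament partner, was lower after siCyclin K#1 and was not called after siCyclin K#2. KRT10 fell with both. KRT15 and VIM differed between the siRNAs: KRT15 fell after siCyclin K#1, and VIM and the KRT81 row fell after siCyclin K#2. KRT80 was called in neither comparison.

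KRT8 was measured at 65.4, 49.7 and 50.7 FPKM in the scrambled libraries, at 80.6, 99.3 and 104.9 after siCyclin K#1 and at 101.1, 93.7 and 97.4 after siCyclin K#2. No siCyclin K library overlapped the scrambled range, and the means were 171.7% and 176.2% of the scrambled mean. The log2 fold change was 0.78 (SE 0.122, limma adjusted p = 0.000779) after siCyclin K#1 and 0.83 (SE 0.122, adjusted p = 0.000806) after siCyclin K#2. Between the siRNAs it was -0.05, with a 95% interval of -0.32 to 0.23. Each value came from 11131 to 24308 reads.

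Pseudogenes of KRT8 share stretches of its sequence. KRT8P3 was measured at 0.901 FPKM ± 0.254 (SD, n = 3) in the scrambled libraries, 1.41 ± 0.0432 after siCyclin K#1 and 1.45 ± 0.185 after siCyclin K#2, and it was called higher in both comparisons (log2 0.63, adjusted p = 0.0254, and log2 0.65, adjusted p = 0.0273, limma). Of 20 keratin pseudogenes tested, 5 were called higher after siCyclin K#1 and 3 after siCyclin K#2, and 0 were called lower by limma in either comparison (at an unadjusted p under 0.05, 0 and 1 were lower), against 26.8% and 19.8% of all tested genes called higher. Under quantile normalization 3 were higher and 2 lower after siCyclin K#1. Of the 20 rows, 2 are joined with other genes. The row of KRT8P50, called higher with both siRNAs, is joined with TTBK2 and cannot be read as a pseudogene value. KRT8P30 and KRT8P43, called higher after siCyclin K#1, passed the filter on low values only with siCyclin K libraries. Whether reads of the pseudogene rows come from KRT8 was not tested.

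KRT18 was measured at 85.0, 80.8 and 83.8 FPKM in the scrambled libraries, at 74.8, 69.8 and 77.6 after siCyclin K#1 and at 89.1, 91.0 and 90.4 after siCyclin K#2. The 3 groups did not overlap: siCyclin K#1 was the lowest, at 89.0% of the scrambled mean, and siCyclin K#2 the highest, at 108.4%. The log2 fold change was -0.17 (SE 0.041, limma adjusted p = 0.00905) after siCyclin K#1. This call was lost under quantile normalization (log2 -0.03, adjusted p = 0.669) and without the mean trend in limma (adjusted p = 0.0562). With siCyclin K#2 the value was 0.12 (adjusted p = 0.0563), not called, and it passed the threshold without siCyclin K#1 replicate 2 (adjusted p = 0.0207) or replicate 3 (adjusted p = 0.0381), with the same fold change. It also passed under quantile normalization (log2 0.15, adjusted p = 0.0269), among genes with a mean of at least 1 FPKM (adjusted p = 0.0369) and with only the 6 libraries compared (adjusted p = 0.0238). KRT18 was lower after siCyclin K#1 than after siCyclin K#2 by a log2 value of -0.29 (SE 0.041, adjusted p = 0.000928). Its 7040 to 9730 reads per library included those in the overlap with KRT8.

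The ratio of KRT8 to KRT18 FPKM was 0.770, 0.615 and 0.605 in the scrambled libraries, 1.08, 1.42 and 1.35 after siCyclin K#1, and 1.13, 1.03 and 1.08 after siCyclin K#2. Its mean after siCyclin K#1 was 193.5% of the scrambled mean and after siCyclin K#2 162.8%, with no overlap between scrambled and siCyclin K libraries. The type II partner thus stood higher against the type I partner in all 6 siCyclin K libraries, and a scaling factor per library cancels in this ratio. Per principal transcript the ratio was 1.07 ± 0.148 (SD, n = 3) in the scrambled libraries, 2.06 ± 0.292 after siCyclin K#1 and 1.73 ± 0.0850 after siCyclin K#2.

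**Figure D2:**
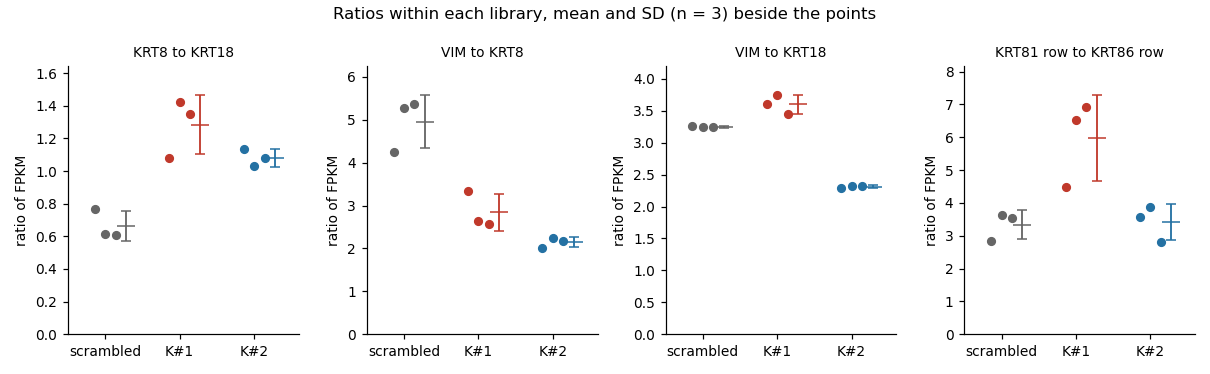
Ratios of FPKM within each library (vertical axis, from 0) for KRT8 to KRT18, VIM to KRT8, VIM to KRT18, and the KRT81 row to the KRT86 row; points are libraries and bars are the mean and SD of 3. KRT8 to KRT18 was 0.605 to 0.770 in the scrambled libraries and above 1 in all 6 siCyclin K libraries, and VIM to KRT18 was lowest after siCyclin K#2, at a mean of 2.31.

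KRT80 was measured at 26.9, 18.5 and 20.6 FPKM in the scrambled libraries, at 25.7, 16.7 and 25.1 after siCyclin K#1 and at 28.8, 26.0 and 28.6 after siCyclin K#2. The scrambled and siCyclin K#1 ranges largely overlapped, and 1 scrambled library lay within the siCyclin K#2 range. The log2 fold change was 0.02 (95% interval -0.39 to 0.44, limma adjusted p = 0.936) after siCyclin K#1 and 0.35 (interval -0.06 to 0.76, adjusted p = 0.176) after siCyclin K#2, so a rise or fall within these intervals was not detectable with 3 libraries. The sign of the first value turned under median-ratio rescaling (-0.10).

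The KRT81 row, which also holds KRT85, was measured at 307.5, 409.4 and 400.4 FPKM in the scrambled libraries, at 263.8, 302.4 and 334.7 after siCyclin K#1 and at 199.0, 247.9 and 164.5 after siCyclin K#2. The siCyclin K#2 libraries were the 3 lowest of the 9, and 1 siCyclin K#1 library lay within the scrambled range. With siCyclin K#2 the row fell to 54.7% of the scrambled mean (log2 -0.88, SE 0.165, limma adjusted p = 0.00308). With siCyclin K#1 the log2 value was -0.31 (adjusted p = 0.173), not called. The row was higher after siCyclin K#1 than after siCyclin K#2 (log2 0.57, adjusted p = 0.0301), and this call was lost when siCyclin K#1 replicate 2 (adjusted p = 0.0787) or 3 (0.0971) or siCyclin K#2 replicate 1 (0.0766) or 3 (0.0915) was left out.

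The row of KRT86, the paralog with the longest identical run, was measured at 111.4 FPKM ± 2.39 (SD, n = 3) in the scrambled libraries, 51.2 ± 6.74 after siCyclin K#1 and 59.5 ± 4.19 after siCyclin K#2. The row fell with both siRNAs, by log2 -1.13 (SE 0.087, limma adjusted p = 9.71e-06) and log2 -0.91 (adjusted p = 6.14e-05). Its length of 8867 bases exceeds the 2394 exonic bases of KRT86, so it cannot be read as a value of KRT86 alone. The ratio of the KRT81 row to the KRT86 row was 3.34 ± 0.440 in the scrambled libraries, 5.98 ± 1.31 after siCyclin K#1 and 3.42 ± 0.544 after siCyclin K#2. The sum of both rows was 483.9, 351.5 and 263.2 FPKM in that order of groups. In the summed row siCyclin K#1 was also called lower (log2 -0.46, adjusted p = 0.0203), an alternative added after seeing the data. KRT83, the third hair keratin of this cluster with a row of its own, was low in every group and moved in opposite directions: 0.267 FPKM ± 0.0465 in the scrambled libraries, 0.514 ± 0.0417 after siCyclin K#1 (log2 0.75, adjusted p = 0.0104) and 0.126 ± 0.0245 after siCyclin K#2 (log2 -0.69, adjusted p = 0.0193).

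KRT10 was measured at 8.70, 9.05 and 10.2 FPKM in the scrambled libraries, at 7.38, 4.69 and 4.54 after siCyclin K#1 and at 4.27, 6.33 and 5.64 after siCyclin K#2. All 6 siCyclin K libraries were below the scrambled range, at means of 59.5% and 58.2% of it, and siCyclin K#1 replicate 1 was the nearest to it. The log2 fold change was -0.77 (SE 0.200, limma adjusted p = 0.0123) after siCyclin K#1 and -0.79 (SE 0.200, adjusted p = 0.0145) after siCyclin K#2. The second call was lost without scrambled replicate 3 (adjusted p = 0.0512). Between the siRNAs the difference was 0.02 (95% interval -0.44 to 0.47). The values came from 294 to 707 reads.

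KRT15 was measured at 0.595, 0.964 and 0.724 FPKM in the scrambled libraries, at 0.0787, 0.0181 and 0.0258 after siCyclin K#1 and at 0.260, 0.579 and 0.306 after siCyclin K#2. These came from 142, 217 and 166 reads, from 18, 4 and 6 reads, and from 59, 136 and 69 reads. The 3 groups did not overlap, and the means after siCyclin K#1 and siCyclin K#2 were 5.37% and 50.2% of the scrambled mean. On the log2(FPKM + 0.1) scale KRT15 fell by 2.61 after siCyclin K#1 (SE 0.304, limma adjusted p = 0.000123), and the added 0.1 FPKM is larger than its level there, so the scale understates the change: with 0.01 FPKM added the value was -4.08 and with 1 FPKM -0.75. With siCyclin K#2 it was -0.87 (adjusted p = 0.0549), not called, and without siCyclin K#2 replicate 2 it was -1.15 (adjusted p = 0.0187). The siRNAs differed from each other by -1.74 (SE 0.304, adjusted p = 0.00266). KRT15 passed the filter on low values through the scrambled and siCyclin K#2 libraries.

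KRT17 and KRT19 did not pass the filter of 0.1 FPKM in 3 libraries and were not tested. KRT17 had 2, 0 and 0 reads in the scrambled libraries, 13, 5 and 5 after siCyclin K#1 and 6, 2 and 0 after siCyclin K#2. KRT19 had 0, 8 and 5 reads in the scrambled libraries, 0 in each siCyclin K#1 library, and 1, 3 and 0 after siCyclin K#2. A count of 0 allows up to 3 reads, which most of these counts do not exceed, so no fold is given, and this limit covers counting error only.

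VIM was measured at 277.9, 262.0 and 271.9 FPKM in the scrambled libraries, at 269.5, 261.6 and 268.4 after siCyclin K#1 and at 203.7, 210.9 and 210.5 after siCyclin K#2. The siCyclin K#1 libraries lay within or next to the scrambled range, and the siCyclin K#2 libraries stood apart below both, at 77.0% of the scrambled mean. VIM had the smallest spread of the 7 tested rows in the siCyclin K#1 group, with a coefficient of variation of 1.61%, against 2.96% with scrambled siRNA and 1.93% after siCyclin K#2. In those other groups KRT18 had a smaller spread, at 2.59% and 1.08%. With siCyclin K#2 it fell by a log2 value of 0.38 (SE 0.030, limma adjusted p = 2.05e-05), and siCyclin K#1 was above siCyclin K#2 by 0.35 (adjusted p = 4.51e-05). With siCyclin K#1 the log2 value was -0.02 (95% interval -0.09 to 0.05, adjusted p = 0.599) on the deposited scale, -0.15 and called lower under median-ratio rescaling (adjusted p = 0.00924), and 0.16 and called higher under quantile normalization (adjusted p = 0.000369). The direction of VIM after siCyclin K#1 therefore turned with the scaling, and none is given here.

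Relative to KRT8, VIM was lower in every siCyclin K library: the VIM to KRT8 ratio was 4.96 ± 0.618 (SD, n = 3) in the scrambled libraries, 2.85 ± 0.434 after siCyclin K#1 and 2.14 ± 0.120 after siCyclin K#2. Relative to KRT18 it was 3.25 ± 0.0154, 3.60 ± 0.145 and 2.31 ± 0.0217, so that the siRNAs lay on opposite sides of the scrambled libraries. The summed FPKM of the 5 tested type I rows was 93.5 ± 2.12, 79.7 ± 4.42 and 96.4 ± 2.20, and that of the 7 type II rows, in which the KRT81 row dominated, was 562.2 ± 45.6, 469.9 ± 42.3 and 389.3 ± 41.4.

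**Figure D3:**
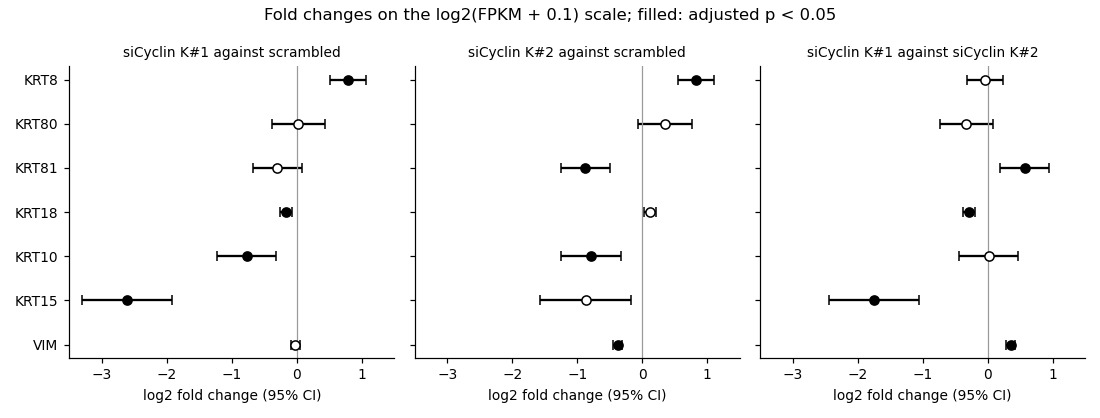
Log2 fold changes on the log2(FPKM + 0.1) scale (horizontal axis) of the 7 tested rows for siCyclin K#1 against scrambled, siCyclin K#2 against scrambled and siCyclin K#1 against siCyclin K#2; bars are 95% confidence intervals from limma, filled points have an adjusted p under 0.05, and the KRT81 row is joined with KRT85. KRT8 was near 0.8 and KRT10 near -0.8 with both siRNAs, whereas KRT15, KRT18, KRT81 and VIM are filled in the comparison between the siRNAs.

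Of the 7 rows tested, 4 were called after siCyclin K#1: KRT8 was higher and KRT10, KRT15 and KRT18 were lower. Among all tested genes 44.8% were called in this comparison, 26.8% higher and 18.1% lower. With siCyclin K#2, 4 of 7 were called, KRT8 higher and KRT10, the KRT81 row and VIM lower, against 34.9% of all genes, 19.8% higher and 15.2% lower. Between siCyclin K#1 and siCyclin K#2, 4 of 7 differed, the KRT81 row and VIM higher after siCyclin K#1 and KRT15 and KRT18 lower, against 29.4% of all genes, 17.1% higher and 12.3% lower. With 7 rows and such shares of all genes called, the counts by themselves say little about the family. Both comparisons with scrambled siRNA use the same 3 scrambled libraries. The median log2 fold change of the 7 rows was -0.17, -0.38 and -0.05 in the 3 comparisons, and that of all tested genes 0.10, 0.01 and 0.08.

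At a fold change over 3 with an unadjusted p under 0.01, the thresholds of the study's methods, KRT15 was called after siCyclin K#1 and between the siRNAs, against 4.67% and 1.53% of all genes. With siCyclin K#2, 0 of the 7 rows passed in limma, against 1.94% of all genes, and 6 had an unadjusted p under 0.05. The share of all genes at that last threshold is not given here. It is at least the 34.9% called at an adjusted p under 0.05, so the count of 6 says little about the family. The scaling mattered for the balance of the calls over all genes: after siCyclin K#1 59.7% of calls were higher on the deposited scale, 49.7% after median-ratio rescaling and 50.3% after quantile normalization, and between the siRNAs these shares were 58.1%, 46.7% and 52.0%. Relative to the median of all genes, the siCyclin K#1 values were 0.68 for KRT8, -0.87 for KRT10, -2.72 for KRT15 and -0.27 for KRT18. Under quantile normalization the 4 calls after siCyclin K#1 were 2 higher and 2 lower, and the 5 after siCyclin K#2 were 2 higher and 3 lower.

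Among the other keratins, 8 rows were tested, of which 1 is the row KRT85 shares with KRT81. With siCyclin K#1 2 were higher and 3 lower, and after siCyclin K#2 2 were higher and 4 lower. Among all tested genes 26.8% were called higher and 18.1% lower after siCyclin K#1, and 19.8% and 15.2% after siCyclin K#2. KRT2, a type II keratin of upper epidermis, was measured at 0.395 FPKM ± 0.0522 (SD, n = 3) in the scrambled libraries, 0.0120 ± 0.0208 after siCyclin K#1 and 0.0689 ± 0.0334 after siCyclin K#2; it passed the filter on low values through the scrambled libraries, so a lower value in the others was favoured by the filter. KRT34, a type I hair keratin, was lower after siCyclin K#1 (log2 -1.17, limma adjusted p = 0.00949). It passed the filter on low values through the scrambled and siCyclin K#2 libraries, so a lower value after siCyclin K#1 was favoured by the filter. KRT4, a type II keratin of mucosal epithelium, was higher after siCyclin K#2 (log2 0.52, adjusted p = 0.0448). KRT222, whose row is joined with SMARCE1 and cannot be read as a keratin value, rose from 2.05 FPKM to 5.05 and 5.24.

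Of 10 other intermediate filament genes tested, 9 were higher after siCyclin K#1 and 6 after siCyclin K#2, and 0 were called lower by limma in either (0 and 0 at an unadjusted p under 0.05), with medians of 0.75 and 0.53 on the log2 scale. Of all tested genes 26.8% and 19.8% were called higher, with medians of 0.10 and 0.01. The counts of the list were 8 and 6 under median-ratio rescaling and 9 and 7 under quantile normalization. All 10 had a positive log2 value after siCyclin K#1, and NEFL, named after its values were seen, was the exception after siCyclin K#2 at -0.53 (adjusted p = 0.161). NES and PRPH, both called higher after siCyclin K#1, averaged 0.0484 and 0.0302 FPKM with scrambled siRNA. NES passed the filter on low values through the siCyclin K#1 libraries and PRPH through siCyclin K libraries. A higher value of these genes there was therefore favoured by the filter. SYNC, which encodes syncoilin of muscle filaments, rose from 0.357 FPKM ± 0.0639 (SD, n = 3) to 3.83 ± 0.389 and 1.36 ± 0.356. SYNM, the large filament protein synemin, which copolymerises with vimentin, rose from 2.21 ± 0.334 to 6.22 ± 0.219 and 5.01 ± 0.217. LMNA, the nuclear lamin A/C gene, rose from 28.4 ± 2.58 to 44.4 ± 2.27 and 47.6 ± 1.55 (log2 0.64, adjusted p = 5.55e-05, and 0.75, adjusted p = 3.82e-05, limma). INA, the neuronal alpha-internexin, rose from 20.2 to 35.5 and 28.4 FPKM, and BFSP1, a lens filament protein, from 1.82 to 3.02 and 2.63.

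Of 14 genes that link filaments to the plasma membrane or belong to desmosomes, 9 were higher and 2 lower after siCyclin K#1, and 8 were higher and 3 lower after siCyclin K#2. Of all tested genes 26.8% were called higher and 18.1% lower after siCyclin K#1, and 19.8% and 15.2% after siCyclin K#2. PPL, the plakin periplakin that binds keratin and vimentin filaments, rose from 0.237 FPKM ± 0.0356 (SD, n = 3) to 4.64 ± 0.0995 and 2.22 ± 0.155, and EVPL, its partner envoplakin, from 3.59 ± 0.302 to 6.91 ± 0.302 and 7.09 ± 0.309. The desmosomal cadherin DSG2 rose from 16.9 to 33.2 and 20.2 FPKM and the plaque protein PKP3 from 8.34 to 11.1 and 15.2. PNN, a desmosome-associated and nuclear protein, fell from 69.2 ± 3.32 to 39.9 ± 1.201 and 46.5 ± 1.103 (log2 -0.79, adjusted p = 1.09e-06, and -0.57, adjusted p = 1.33e-05, limma).

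**Figure D4:**
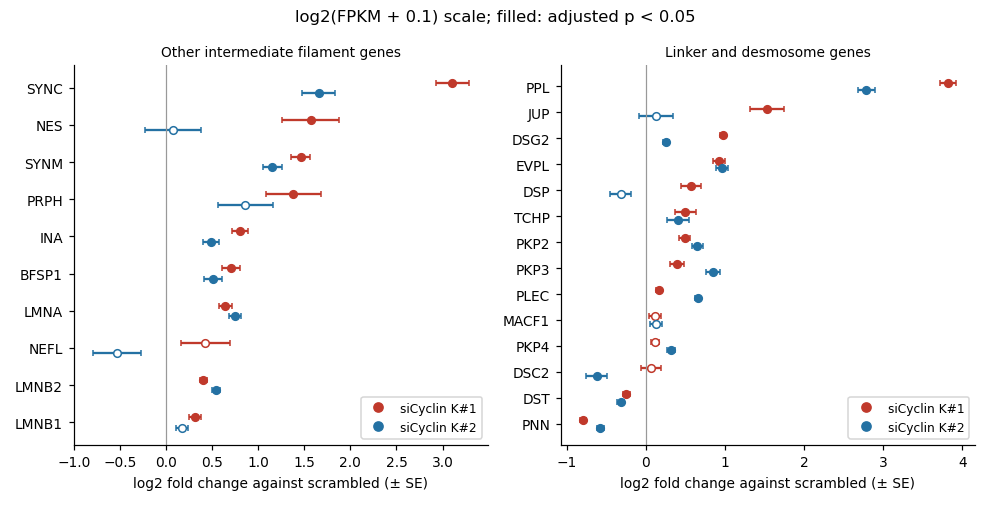
Log2 fold change against scrambled siRNA on the log2(FPKM + 0.1) scale (horizontal axis) of the 10 tested other intermediate filament genes and of 14 linker and desmosome genes, for siCyclin K#1 and siCyclin K#2; bars are the standard error and filled points have an adjusted p under 0.05. SYNC and PPL stand farthest to the right with both siRNAs, and PNN lies left of 0 with both.

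Markers of epithelial and of mesenchymal state were counted beside KRT8, KRT18 and VIM. Of 17 epithelial markers tested, 9 were higher and 2 lower after siCyclin K#1, and 3 higher and 2 lower after siCyclin K#2. Of all tested genes 26.8% were called higher and 18.1% lower after siCyclin K#1, and 19.8% and 15.2% after siCyclin K#2. TJP3, among those higher after siCyclin K#1, averaged 0.0391 FPKM with scrambled siRNA and passed the filter only through siCyclin K libraries. The epithelial transcription factor ELF3, whose row is joined with another locus, rose from 1.37 FPKM ± 0.0489 (SD, n = 3) to 17.4 ± 0.810 and 6.40 ± 0.293, and the polarity gene LLGL2 rose from 1.70 to 4.86 and 3.29, while the tight junction gene CLDN1 fell from 23.9 to 10.95 and 17.28. CDH1, the epithelial cadherin, also named after its values were seen, was at 1.64 FPKM with scrambled siRNA, 3.88 after siCyclin K#1 (adjusted p = 0.00428) and 1.71 after siCyclin K#2 (adjusted p = 0.965). The summed level of the epithelial list was 126.5 to 131.8 FPKM in the scrambled libraries, 148.7 to 155.8 after siCyclin K#1 and 128.3 to 138.1 after siCyclin K#2. Of 19 mesenchymal markers, 7 were higher and 3 lower after siCyclin K#1, and 8 higher and 4 lower after siCyclin K#2. The same shares of all tested genes stand beside these counts. CDH2, the mesenchymal cadherin, rose from 17.2 ± 0.154 to 32.0 ± 1.29 and 30.3 ± 0.471, the matrix protein gene FN1 from 27.98 ± 1.68 to 53.3 ± 1.26 and 40.6 ± 0.897, and ACTA2, smooth muscle actin, from 0.475 to 5.09 and 1.41. LOX and TNC, which act in the matrix, were also higher with both. The 4 that fell after siCyclin K#2 were SPARC (log2 -1.04, adjusted p = 0.0153), S100A4 (-0.58, 0.0153), SNAI1 (-0.57, 0.0146) and CD44 (-0.43, 0.0215), named after their values were seen. In the libraries in which VIM was lower, mesenchymal markers thus moved in both directions.

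Of the fibroblast list 5 of 9 genes were tested, with 4 higher after siCyclin K#1 and 2 after siCyclin K#2, and COL1A1 rose from 2.03 FPKM ± 0.218 (SD, n = 3) to 14.0 ± 0.572 and 3.19 ± 0.0999; the summed level of the list was 5.82 to 6.62 FPKM in the scrambled libraries, 20.2 to 22.4 after siCyclin K#1 and 7.98 to 8.11 after siCyclin K#2, with COL3A1 and DCN near 0 in all. Of the alveolar type 2 list 3 genes were tested, 2 higher after siCyclin K#1 and 1 after siCyclin K#2, of the basal list 2 were tested and both were higher after siCyclin K#1, of the endothelial list 1 was tested and not called, and of the leukocyte list 3 were tested, 1 lower after siCyclin K#1 and 1 higher after siCyclin K#2. The last was CD68, a lysosomal protein of macrophages, at 30.3 FPKM in the scrambled libraries, 32.2 after siCyclin K#1 and 37.9 after siCyclin K#2 (log2 0.32, adjusted p = 0.000238). Of all tested genes 26.8% were called higher and 18.1% lower after siCyclin K#1, and 19.8% and 15.2% after siCyclin K#2. TP63 of the basal list and LAMP3 of the alveolar list averaged 0.0920 and 0.0808 FPKM with scrambled siRNA. They passed the filter only with siCyclin K libraries, which favoured a higher value there. The part of these lists in the keratin and VIM values was not tested.

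Of 22 tested transcription factors known to act on keratin genes, 11 were higher and 4 lower after siCyclin K#1, and 10 higher and 3 lower after siCyclin K#2. Among all tested genes 26.8% were called higher and 18.1% lower after siCyclin K#1, and 19.8% and 15.2% after siCyclin K#2. FOSL1, an AP-1 subunit, fell from 115.1 FPKM ± 12.2 (SD, n = 3) to 17.5 ± 0.999 after siCyclin K#1 and to 66.8 ± 6.74 after siCyclin K#2. CEBPA, a factor of epithelial differentiation, fell from 9.82 ± 0.779 to 3.68 ± 0.425 and 2.91 ± 0.123, while its relative CEBPD rose from 2.52 to 9.29 and 4.93. KLF4 rose from 2.09 to 6.19 and 3.52 FPKM and JUND from 7.70 to 14.8 and 13.4.

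Genes whose pattern over the 9 libraries was nearest to that of a member were named by the root mean square distance of log2 values, each centred on the gene's scrambled mean, among 11242 genes with a mean of at least 1 FPKM. Nearest to VIM were the row of NUP160 (distance 0.0205), C3orf58 (0.0350) and PAPSS2 (0.0389), nearest to KRT18 were RPRD2 (0.0265), CDKN3 (0.0277) and STIP1 (0.0281), and nearest to the KRT81 row were MTRNR2L12 (0.1496), GAS5-AS1 (0.153) and CCDC134 (0.162). These distances describe likeness over 9 libraries that share 3 groups.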

How the data were processed

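The 9 A549 RNA libraries were sequenced by the authors as paired 150-base reads, and the deposited unit is FPKM per feature and library, made with StringTie 1.3.3b per the labels. The aligner, filters and annotation release are not given in the sources used here. Coordinates of 29253 of 29695 gene identifiers found in GENCODE 29 were the same there, so GRCh38 was taken as the build. The labels name another culture medium than the study's methods.

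The files list 56252 features. The 25125 loci without a reference gene were left out, rows of 1 gene were summed (47 genes), and 21048 genes with at least 0.1 FPKM in at least 3 libraries entered limma 3.58.1 as log2(FPKM + 0.1) (R 4.3.3, lmFit and eBayes with trend, 3 groups, 6 residual degrees of freedom, Benjamini-Hochberg). On simulated data with 200 genes of 21048 changed by a factor of 2, 174 were recovered with 10 false calls. The simulated noise was independent between genes, and only genes with a mean of at least 1 FPKM were changed. A far larger share of genes was called in the real data. These figures therefore do not carry over to the real calls, to lower genes or to smaller changes. Between 97.0% and 97.5% of values under 20 reads were whole within 0.05 read, given the GENCODE exon length. A row's length was taken as the one at which all 9 values became whole within 0.05 read. The named genes are the 10 members, other tested keratins, pseudogenes of members, and, of each list, at most 5 genes with the largest mean change among those called with both siRNAs and with a mean of at least 1 FPKM. The members and lists were chosen with earlier results of these data known. Alternatives were other pseudocounts, filters and scalings, no trend, a replicate block, fewer libraries and the thresholds of the study's methods. The members' sequences are not reported here.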

Additional observations from a re-analysis of the deposited data

Results flagged for a closer look

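KRT15, KRT18, the KRT81 row and VIM were called by limma when the siRNAs were set against one another, with log2 values of siCyclin K#1 minus siCyclin K#2 of -1.74 for KRT15, -0.29 for KRT18, 0.57 for the KRT81 row and 0.35 for VIM. The groups did not overlap for any of the 4, nor for KRT80, which was not called (adjusted p = 0.224). Among all tested genes 29.4% were called in this comparison, and the share of all genes without overlap was not computed. The adjusted p was 0.00266, 0.000928, 0.0301 and 4.51e-05 in the same order.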

How the results depend on the processing

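Of the 399 values of single members recomputed under alternatives, 368 kept their direction and their side of the threshold. Those that turned were not called on the deposited scale. KRT10 between the siRNAs went from 0.02 to -0.057 under median-ratio rescaling and -0.022 under quantile normalization, and ranged from -0.207 to 0.137 when a library was left out. KRT8 between the siRNAs became 0.06 under quantile normalization and ranged from -0.122 to 0.068 with a library left out. KRT80 after siCyclin K#1 became -0.10 under median-ratio rescaling and ranged from -0.091 to 0.223 with a library left out. VIM after siCyclin K#1 became 0.16 under quantile normalization, with a call (adjusted p = 0.000369). The cause was not tested. KRT15 after siCyclin K#2 was called with a pseudocount of 1 FPKM (log2 -0.35, adjusted p = 0.0284) and under median-ratio rescaling (-0.92, 0.0429). The difference of the KRT81 row between the siRNAs was not called under median-ratio rescaling (0.50, adjusted p = 0.0501) or without the trend (0.0565).

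At a fold change over 3 and p under 0.01, a stricter rule by construction, 1 member was called after siCyclin K#1, 0 after siCyclin K#2 and 1 between them, against 983, 409 and 322 of all genes. With a replicate block 4 members were called in each comparison and 9062, 6947 and 5680 of all genes. Same-numbered libraries of different groups did not deviate together (correlations of -0.071 to 0.038 over 11243 genes). The correlations cannot show whether same-numbered libraries were prepared together. With 1 library left out the count of members called was 4 after siCyclin K#1 in all 9 fits, 3 to 5 after siCyclin K#2 and 3 to 4 between them. Depth limits KRT17 and KRT19, and KRT15 after siCyclin K#1.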
